A study of Mus musculus with 6 samples.

Results

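The interferon regulatory factor (IRF) genes were examined in RAW264.7 cells, a mouse macrophage-like line, given a lentiviral Fbxw11 vector or the control vector. The members were the rows of the deposited expression table named Irf1, Irf2, Irf3, Irf4, Irf5, Irf7, Irf8 and Irf9, 8 of 56748 genes listed. The table holds 3 control and 3 Fbxw11 libraries, and both groups were sorted before RNA was taken. The Fbxw11 vector is written pMSCV-Fbxw11-pGk-GFP in the labels, and the control libraries are named for GFP. No stimulus beyond the infection is named for either group, and the medium, with 10% fetal bovine serum and 1% Penicillin-Streptomycin, was shared. Whether a group's libraries are separate infections or cultures is in no label, and p-values therefore measure library-to-library spread that may be technical.

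IRF proteins share an amino-terminal, tryptophan-rich DNA-binding domain that contacts GAAA repeats in the interferon-stimulated response element (ISRE). IRF3 and IRF7 lie dormant in the cytoplasm until pathogen sensors trigger their phosphorylation, and they then switch on the type I interferon genes. IRF9 joins STAT proteins in the complex ISGF3, which carries the signal of secreted interferon to the nucleus, while IRF1 is induced by interferon-gamma and its relative IRF2 competes for the same sites. IRF8 and IRF4 bind weakly alone and act with partners such as PU.1 in macrophages and B cells, and IRF5 drives inflammatory cytokine genes. A transcript level, the quantity measured here, does not show how much of a factor is phosphorylated or nuclear.

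The promoter sequences of the 2 members that rose, Irf3 and Irf8, and of the antagonists Irf1 and Irf2 are shown because these pairs differ in the interferon and NF-kB motifs they hold. All 8 members had an entry among the RefSeq promoters of GRCm38.p6 (11 entries, 3 members with 2 start sites), each running from 250 bases before to 50 after a start site. Each window was searched on both strands for the ISRE core GAAANNGAAA, for the gamma-activated site (GAS) TTCNNNGAA, which STAT dimers bind, and for the NF-kB motif (kB). A match was found in 3.44% of all 32851 promoters for ISRE, 8.30% for GAS and 8.46% for kB. Capitals mark matches, all lines read 5′ to 3′ on the plus strand, and each ends at the last base before the start site. The Irf3 line is chr7:44997448-44997647, the Irf8 line chr8:120736158-120736357, the Irf1 line chr11:53769914-53770013 and the Irf2 line chr8:46739495-46739744.
Irf3: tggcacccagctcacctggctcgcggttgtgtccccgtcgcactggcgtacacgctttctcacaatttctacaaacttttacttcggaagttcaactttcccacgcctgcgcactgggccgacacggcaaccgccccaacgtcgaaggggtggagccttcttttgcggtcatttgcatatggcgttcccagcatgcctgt
Irf8: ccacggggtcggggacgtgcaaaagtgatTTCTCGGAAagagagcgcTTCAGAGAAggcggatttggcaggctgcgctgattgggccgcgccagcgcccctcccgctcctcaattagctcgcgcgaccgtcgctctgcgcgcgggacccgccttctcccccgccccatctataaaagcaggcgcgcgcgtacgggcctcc
Irf1: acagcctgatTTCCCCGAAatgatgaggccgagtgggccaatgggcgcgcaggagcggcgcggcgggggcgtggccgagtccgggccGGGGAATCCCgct
Irf2: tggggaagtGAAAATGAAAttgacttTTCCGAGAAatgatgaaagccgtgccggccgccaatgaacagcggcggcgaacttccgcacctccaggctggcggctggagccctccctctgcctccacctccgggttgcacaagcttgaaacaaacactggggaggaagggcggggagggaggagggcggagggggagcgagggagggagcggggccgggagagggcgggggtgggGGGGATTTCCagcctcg
The Irf8 promoter held 2 GAS matches, beginning 171 and 153 bases before the start site. Irf1 held a GAS match at 90 bases and a kB match at 13 bases before its start, and Irf2 held all 3 motifs, at 241 (ISRE), 224 (GAS) and 17 (kB) bases before its start. The Irf3 window held no match, nor did the windows of Irf4, Irf5, Irf7 and Irf9. The second entries of Irf1 and Irf8, at internal start sites, held none either. A match describes letters only, and no match says nothing of sites outside the window.

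Irf7 was by far the most abundant member. Values are FPKM, fragments per kilobase of gene length, scaled to library size, so they may be compared between genes. Mean control levels ran from Irf7 at 108 ± 2.03 FPKM (SD, n = 3), through Irf9 at 29.8 ± 0.615, Irf5 at 24.8 ± 0.898, Irf8 at 9.76 ± 0.297, Irf3 at 6.40 ± 0.145 and Irf2 at 3.88 ± 0.256, to Irf4 at 2.55 ± 0.0872 and Irf1 at 2.28 ± 0.142. Irf7 alone made up 57.7% ± 0.727 of the summed FPKM of the 8 genes in control and 56.3% ± 0.731 with Fbxw11. Across the 6 libraries the ranges of neighbours in this order were separate, except for Irf4 (2.17 to 2.63 FPKM) and Irf1 (2.16 to 2.97 FPKM). Irf1 lay below Irf4 in the control libraries and had the higher mean in the Fbxw11 libraries.

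**Figure D1:**
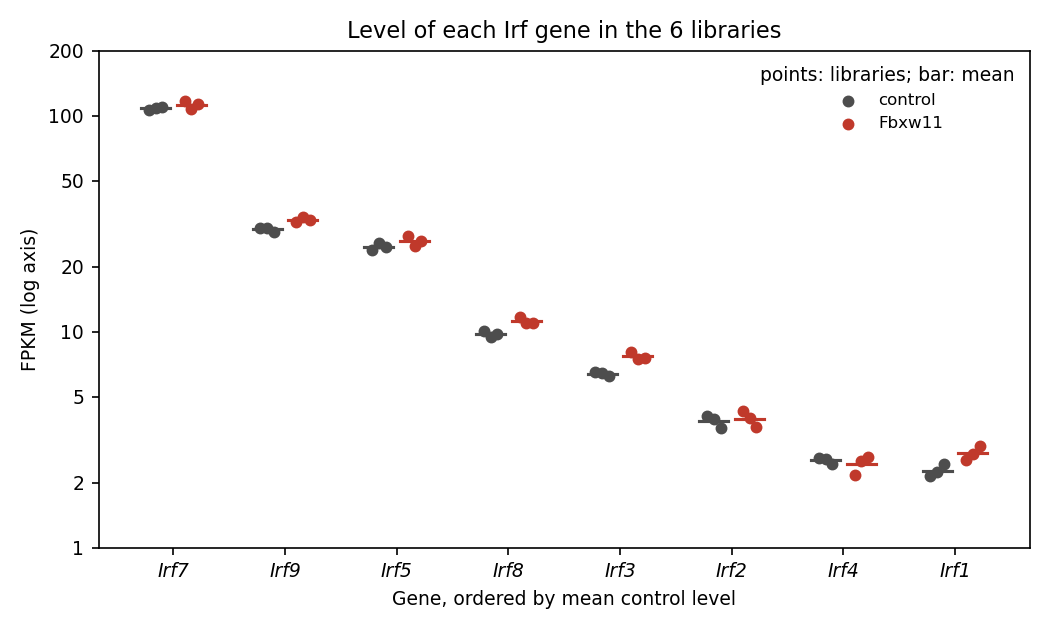
FPKM on a log axis (vertical) of the 8 Irf genes (horizontal), with 1 point per library, a bar at each group's mean, control in grey and Fbxw11 in red. Irf7 lies near 108 FPKM and Irf1 and Irf4 near 2.5, and the control and Fbxw11 points of Irf3, Irf8, Irf9 and Irf1 do not overlap.

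In GENCODE on GRCm38 the members lie at chr11:53770014-53778374 (Irf1), chr8:46739732-46847458 (Irf2), chr7:44997648-45002848 (Irf3), chr13:30749226-30766976 (Irf4), chr6:29526625-29541871 (Irf5), chr7:141262706-141266481 (Irf7), chr8:120736358-120756694 (Irf8) and chr14:55603571-55610030 (Irf9). The gene lengths behind the FPKM values bear on the order. The length listed for Irf7, 3776 bases, equals the whole span of the gene in the table, introns included, and is 1.97 times its principal transcript of 1916 bases in GENCODE. For Irf2 the listed length is 2.96 times the principal transcript, for Irf8 2.48 times and for Irf4 1.03 times. Divided by principal transcript length instead, a choice made after seeing the data, control levels became 213 for Irf7, 65.3 for Irf9, 32.1 for Irf5, 24.2 for Irf8, 11.5 for Irf2, 10.8 for Irf3, 4.23 for Irf1 and 2.63 for Irf4. Irf2 then passed Irf3 and Irf1 passed Irf4, while the leading 4 kept their order. The ratio of a gene's mean FPKM between groups does not depend on its length. Its log2 fold change of FPKM + 1 and the filter of 1 FPKM do, through the level.

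As a check of the labels, the Fbxw11 transcript averaged 36.1 ± 0.409 FPKM in the control group and 271 ± 2.74 FPKM in the other. Over all genes, limma on log2(FPKM + 1) called 1007 of 10898 at an adjusted p under 0.05 (9.24%), of which 501 rose (4.60% of genes tested) and 506 fell. The balance moved with scaling: 32.8% of calls were rises on the TPM scale and 35.5% over plain read sums, against 49.8%. Leaving out control library 1 or 2 gave 448 and 409 calls, and leaving out Fbxw11 library 1 or 2 gave 567 and 533. Libraries held 16191971 to 18951653 reads, recovered from the FPKM steps. All 8 macrophage markers, such as Cd68 and Csf1r, were detected and passed the filter. Of these, 3 rose (Adgre1, Itgam and Lyz2) and 0 fell, and Csf1r averaged 153.8 FPKM in control and 147.0 in Fbxw11 libraries (adjusted p = 0.290). The summed level of all 8 ran from 4168 to 4341 FPKM in control libraries and from 4617 to 4743 FPKM in Fbxw11 libraries. The part of this difference in the Irf values was not tested. Of 7 lymphocyte markers, the B cell genes Cd79a, Ms4a1 and Pax5 averaged 0.932 to 2.33 FPKM in a group, and Cd3g and Nkg7 were at 0 in every library. The summed level of the 7 ran from 6.40 to 6.71 FPKM in control and 4.87 to 6.20 in Fbxw11 libraries. Irf4 and Irf8 are also B cell genes, and the part of these markers in their levels was not tested. The 5 dendritic cell markers summed to 0.600 to 0.914 FPKM and 6 epithelial, stromal and endothelial markers to 1.39 to 1.52 FPKM. Control library 3 and Fbxw11 library 3 stood apart from the other 4 on the second principal component (23.7% of variance).

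Of the 8 members, 2 rose in the Fbxw11 libraries, Irf3 and Irf8, and 0 fell, beside 9.24% of all genes called and 4.60% called as rises. The other 6 did not pass. In 4 of the 8 (Irf1, Irf3, Irf8 and Irf9) the Fbxw11 libraries all lay above the controls, against 15.6% of all genes, and the same 4 had an unadjusted p under 0.05, against 24.6% of all genes. The log2 fold change was above 0 for 7 members, against 50.9% of all genes tested, with a median of 0.11 against 0.00. Among the 7, Irf2 was below 0 on the TPM scale, over plain read sums and with voom on recovered reads. All 8 passed the filter of a mean of 1 FPKM. Both changes were small, since the median absolute log2 fold change was 0.31 over all genes called and 0.21 for these 2. The summed level of the 8 was 188 ± 1.70 FPKM without Fbxw11 and 200.1 ± 5.71 FPKM with it. On this deposited scale the lowest Fbxw11 library (194) lay above the highest control library (189). The library sizes behind the FPKM raise values in Fbxw11 libraries, and the sum was not compared on other scales. In bulk RNA, more cells with a transcript and more transcript per cell cannot be told apart.

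**Figure D2:**
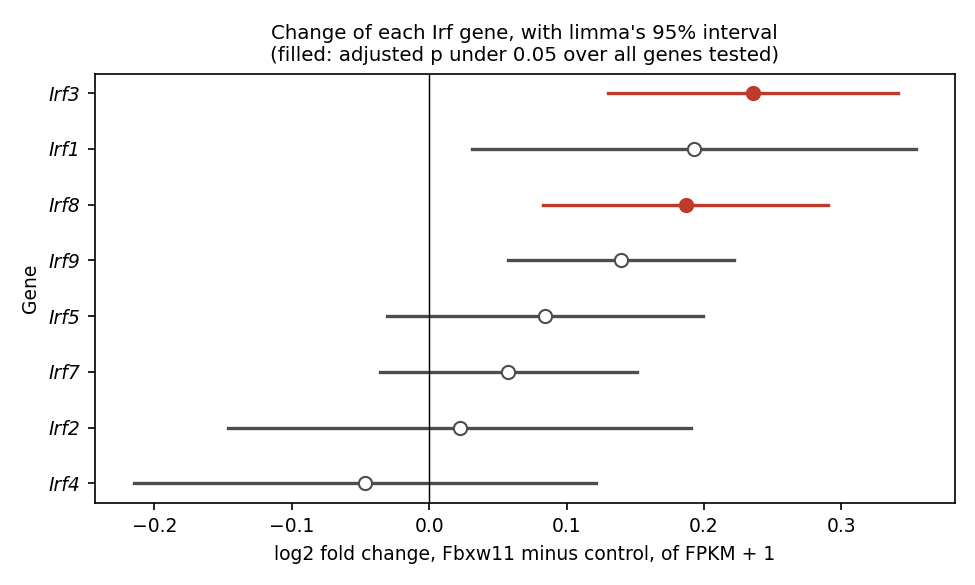
log2 fold change of FPKM + 1, Fbxw11 minus control (horizontal), for each Irf gene (vertical), with limma's 95% interval as a line and filled points for genes past the threshold. Irf3 at 0.24 and Irf8 at 0.19 are filled, and the intervals of Irf5, Irf7, Irf2 and Irf4 span 0.

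Irf3, the constitutively made activator of the interferon-beta gene, measured 6.52, 6.44 and 6.24 FPKM in control libraries 1 to 3 and 8.08, 7.49 and 7.57 FPKM in Fbxw11 libraries 1 to 3. The groups did not overlap, and all 3 Fbxw11 libraries were above every control. The mean rose by 20.5% to 7.71 ± 0.322 FPKM, from 6.40 ± 0.145, which is a log2 fold change of 0.24 (SE 0.04, limma adjusted p = 0.0231). Between 364 and 460 reads per library lay behind it, a counting error of 5.24% in the lowest. The call was lost without control library 1 (adjusted p = 0.0702), control library 2 (0.0859), control library 3 (0.0678), Fbxw11 library 1 (0.0649), Fbxw11 library 2 (0.0553) or both libraries numbered 3 (0.0895). It was also lost with the replicate number as a block and with no filter. The call was kept without Fbxw11 library 3 (0.0496), on the TPM scale (0.0381) and over plain read sums (0.0377). Irf3 shares 1065 bases with Bcl2l12 on the opposite strand, and use of strand in counting was not given in the sources used here. Bcl2l12 itself was too low to be tested, at 0.712 ± 0.0261 FPKM without and 0.762 ± 0.0968 FPKM with Fbxw11.

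Irf7, the factor that amplifies interferon production and is itself a classical interferon-induced gene, measured 106, 108 and 110.3 FPKM in control and 117, 108 and 113 FPKM in Fbxw11 libraries. Fbxw11 library 2 lay within the control range, and the others above it. The mean stood at 113 ± 4.62 FPKM against 108 ± 2.03, 4.16% higher (log2 fold change 0.06, 95% interval -0.04 to 0.15, adjusted p = 0.419). With 6595 to 7849 reads per library, counting error was at most 1.23%. On the TPM scale the log2 fold change was 0.01 and over plain read sums 0.02.

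The proportion of Irf7 to Irf3 was lower in each Fbxw11 library. Irf7 was 16.3, 16.8 and 17.7 times the level of Irf3 in the control libraries and 14.5, 14.4 and 14.97 times in the Fbxw11 libraries. The groups did not overlap, and a ratio within a library does not depend on how libraries are scaled. The mean log2 ratio was 4.08 ± 0.06 in control and 3.87 ± 0.03 in Fbxw11 libraries. An exact two-sided permutation test gave p = 0.10, the smallest that 3 against 3 allows (0.25 adjusted over 5 ratios).

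Irf9, the DNA-binding subunit of ISGF3, measured 30.1, 30.2 and 29.1 FPKM in control and 32.3, 33.8 and 32.8 FPKM in Fbxw11 libraries. All 3 Fbxw11 libraries lay above every control, and the mean was 10.5% higher. It missed the threshold narrowly, with a log2 fold change of 0.14 (SE 0.03, adjusted p = 0.0545). It passed when genes under a mean of 5 FPKM were left out (0.0472), and its log2 fold change was 0.10 both on the TPM scale (adjusted p = 0.132) and over plain read sums (0.116). The gene shares 123 bases with Rnf31 on the same strand, which stood at 6.63 ± 0.440 and 6.91 ± 0.184 FPKM, control before Fbxw11. The ratio of Irf7 to Irf9 ran from 3.52 to 3.79 in control and from 3.19 to 3.63 in Fbxw11 libraries, overlapping (exact two-sided permutation p = 0.30).

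Irf8, a lineage factor of monocytes and macrophages, measured 10.1, 9.48 and 9.73 FPKM in control and 11.7, 10.97 and 11.02 FPKM in Fbxw11 libraries. Again every Fbxw11 library exceeded every control. The mean rose by 15.3% to 11.2 ± 0.437 FPKM, from 9.76 ± 0.297, which is a log2 fold change of 0.19 (SE 0.04, adjusted p = 0.0459). This call lay just inside the threshold and was lost without control library 1 (adjusted p = 0.0913), control library 2 (0.159), control library 3 (0.108), Fbxw11 library 1 (0.116), Fbxw11 library 2 (0.0962), Fbxw11 library 3 (0.0747) or both libraries numbered 3 (0.123). It was also lost on the TPM scale (log2 fold change 0.16, adjusted p = 0.0948) and over plain read sums (0.15, adjusted p = 0.0851). The replicate number as a block, no filter or no mean-variance trend removed the call too. Voom on recovered reads kept it (0.17, adjusted p = 0.0423).

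Irf4, the close relative of Irf8 linked to B cells and to alternative macrophage activation, measured 2.62, 2.59 and 2.45 FPKM in control and 2.17, 2.54 and 2.63 FPKM in Fbxw11 libraries. The groups overlapped, with Fbxw11 library 1 the lowest of all 6. Its log2 fold change was -0.05 (95% interval -0.21 to 0.12, adjusted p = 0.734), the one member with a value below 0, and it turned to 0.01 without Fbxw11 library 1. Only 173 to 244 reads per library lay behind it. The ratio of Irf8 to Irf4 was 3.85, 3.66 and 3.97 in control and 5.42, 4.32 and 4.19 in Fbxw11 libraries, higher in each of the latter (exact two-sided permutation p = 0.10, 0.25 adjusted over 5 ratios).

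Irf1, which interferon-gamma and NF-kB induce, measured 2.16, 2.24 and 2.43 FPKM in control and 2.55, 2.72 and 2.97 FPKM in Fbxw11 libraries. The groups did not overlap and the mean was 20.6% higher, as large a relative difference as that of Irf3. It did not pass (log2 fold change 0.19, SE 0.07, adjusted p = 0.140). With 141 to 201 reads per library, its counting error reached 8.42% in the lowest library. Its values on the log2(FPKM + 1) scale understate the change of so low a gene, and with a pseudocount of 0.1 the log2 fold change was 0.26 (adjusted p = 0.138).

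Irf2, the repressor that competes with Irf1, measured 4.09, 3.97 and 3.60 FPKM in control and 4.30, 3.98 and 3.61 FPKM in Fbxw11 libraries. Library 3 was the lowest in both groups, and the groups overlapped almost entirely. The log2 fold change was 0.02 (95% interval -0.15 to 0.19, adjusted p = 0.882), and it was -0.014 on the TPM scale and -0.0074 over plain read sums. The ratio of Irf1 to Irf2 was 0.528, 0.564 and 0.677 in control and 0.593, 0.684 and 0.822 in Fbxw11 libraries, overlapping (exact two-sided permutation p = 0.20).

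Irf5, which drives inflammatory cytokine genes, measured 23.9, 25.7 and 24.7 FPKM in control and 27.7, 25.0 and 26.3 FPKM in Fbxw11 libraries. Fbxw11 library 2 lay inside the control range. The log2 fold change was 0.08 (95% interval -0.03 to 0.20, adjusted p = 0.335). Irf5 shares 1045 bases with Tnpo3 on the opposite strand, which averaged 10.7 ± 0.0754 FPKM without and 10.4 ± 0.176 FPKM with Fbxw11. The ratio of Irf5 to Irf4 overlapped between groups, at 9.14 to 10.1 and 9.86 to 12.8, control before Fbxw11 (exact two-sided permutation p = 0.50).

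**Figure D3:**
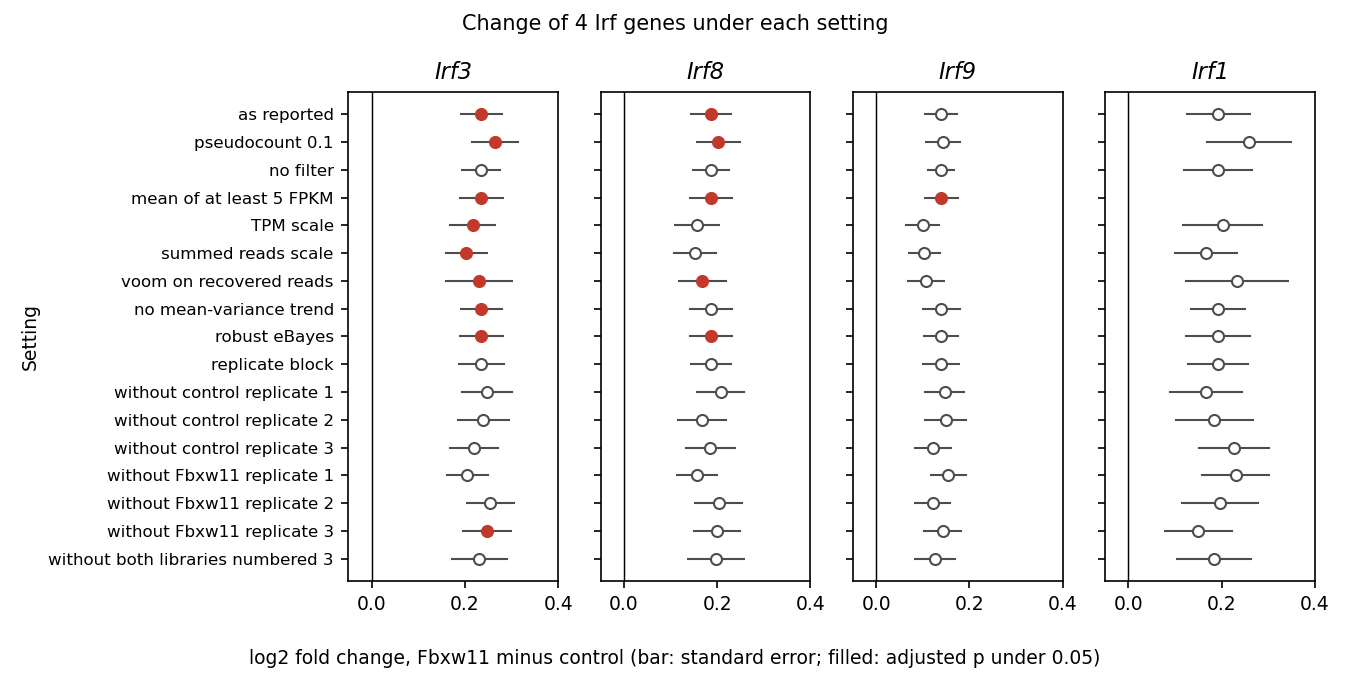
log2 fold change, Fbxw11 minus control (horizontal), of Irf3, Irf8, Irf9 and Irf1 under each setting (vertical), with the standard error as a line and filled points where the adjusted p is under 0.05. Irf3 is filled as reported and under 8 of 16 alternatives, Irf8 under 4 of 16, Irf9 under 1 of 16 and Irf1 under 0 of 15, and no value falls below 0.

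Genes whose values followed Irf3 and Irf8 most closely were sought over the 6 libraries, as the root mean square (RMS) difference in log2(FPKM + 1) after centring on the control mean. Nearest to Irf3 were Nfkb2, the NF-kB subunit p100 (RMS difference 0.02), the kinase gene Mapkapk2 (0.02) and the 14-3-3 gene Ywhag (0.02). Nfkb2 averaged 36.0 ± 0.456 FPKM without and 42.9 ± 1.89 FPKM with Fbxw11. Nearest to Irf8 were Vps18, of endosome fusion (0.01), the small Maf factor gene Mafk (0.02) and the survival gene Bcl2l2 (0.02). Vps18 averaged 12.6 ± 0.358 FPKM without and 14.5 ± 0.482 FPKM with Fbxw11. A difference between the groups close to that of Irf3 or Irf8 was fixed by this choice of genes, so it is given with no test.

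Around the Irf genes, 9 lists of their kinases and adaptors, partners, restraining factors and known targets held 115 distinct genes, 7 of them in more than 1 list. Of 101 tested, 36 rose and 2 fell, with a median log2 fold change of 0.11, beside 9.24% called over all genes. All 9 lists were chosen with earlier results of these data known, so neither this count nor that of any list is an independent test. Target lists rest on textbook knowledge and do not show that a factor acted here.

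Of 17 kinases and adaptors that lead to IRF activation, 5 rose and 0 fell (median 0.14). They were Irak2, Ticam1, Ikbke, Myd88 and Irak4. Ticam1, which encodes the adaptor TRIF upstream of IRF3, rose from 18.2 ± 0.565 to 24.0 ± 1.03 FPKM, by 0.38 on the log2 scale (adjusted p = 0.00440). Ikbke, the IRF3 and IRF7 kinase IKK-epsilon, rose from 11.1 ± 0.291 to 14.3 ± 0.591 FPKM (0.34), Myd88 by 0.30 and Irak2 by 0.35. The other IRF3 kinase gene, Tbk1, stood at 31.9 and 35.8 FPKM (adjusted p = 0.129), and the most abundant member, Tank, at 35.0 and 39.5 FPKM (0.0821, and 0.0342 without Fbxw11 library 1). Mavs (11.1 and 9.52 FPKM, adjusted p = 0.120) and Sting1 (7.19 and 7.08 FPKM, 0.838) did not pass.

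Among 11 tested partner factors 2 rose and 0 fell (median 0.11). Stat2, the ISGF3 partner of IRF9, rose from 34.9 ± 0.889 to 44.1 ± 0.315 FPKM, by 0.33 on the log2 scale (adjusted p = 0.00274), and Junb from 88.7 ± 4.46 to 109.8 ± 6.61 FPKM (0.30). Spi1, which encodes PU.1, stood at 59.7 and 64.4 FPKM (0.177). Jun averaged 120.2 and 121 FPKM, and the TPM scale gave it the opposite sign. Batf3, a partner of IRF8 in dendritic cells, was under the filter. Of 7 restraining factors 2 rose and 0 fell (median 0.08). Trim21, a ubiquitin ligase for several IRF proteins, rose from 7.03 ± 0.604 to 9.41 ± 0.566 FPKM (0.38) and Lyn, a kinase that holds back IRF5, from 77.5 ± 0.118 to 86.8 ± 1.45 FPKM (0.16). The call of Trim21 was lost under 5 of 16 alternatives and that of Lyn under 7. Without control library 1, control library 2 or Fbxw11 library 2, 0 of the 7 passed, and without control library 3 or Fbxw11 library 1, 1 did. Partner calls numbered 1 without control library 1, control library 2 or Fbxw11 library 1. The IRF2-binding protein genes Irf2bp1, Irf2bp2 and Irf2bpl did not pass (adjusted p = 0.417, 0.632 and 0.606).

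Targets of IRF3 and IRF7 rose in 13 of 13 tested members, with a median log2 fold change of 0.77, beside 4.60% rises over all genes. The list was chosen with earlier results of these data known, so this count is no independent test. Ifnb1, the interferon-beta gene, went from 8.22 ± 0.643 to 27.1 ± 0.735 FPKM (log2 fold change 1.61). Ifna2, Ifna4 and Ifna5 rose by 1.502, 1.56 and 1.93, though the Ifna genes are near-identical copies whose separate values are uncertain. These are well above the 0.24 and 0.06 of Irf3 and Irf7 themselves. Few reads lay behind the Ifna values, with 20, 28 and 14 for Ifna2, Ifna4 and Ifna5 in the lowest library of each. Ifna1, also among the 13, had 5 reads in its lowest library. It averaged 0.888 FPKM without and 3.11 FPKM with Fbxw11, and so passed the filter of 1 FPKM through the Fbxw11 group. As near-identical copies, the Ifna genes may not be separate rises among the 13. Of 23 ISGF3 targets 9 rose and 0 fell (median 0.11), with 5 called without control library 1 or without Fbxw11 library 2. Ifit1 rose by 0.59, Mx2 by 0.51 and Cmpk2 by 0.40, while Bst2 (328 and 339 FPKM, adjusted p = 0.827), Usp18 (142 and 151 FPKM, 0.277) and Mx1 (5.48 and 5.47 FPKM, 0.998) did not pass. Irf7 and Irf9 are themselves known ISGF3 targets and were left out of that list.

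Of 18 tested IRF1 targets, 5 rose and 0 fell (median 0.10). Il27 rose from 7.21 ± 0.452 to 14.4 ± 1.69 FPKM (0.91), Cxcl10 by 0.77, Gbp5 by 0.66, Gbp2 by 0.55 and Cd274, which encodes PD-L1, by 0.44. The antigen-presentation genes of the list did not pass, among them Psmb8 (30.7 and 29.0 FPKM, adjusted p = 0.362), Tap1 (27.6 and 31.7 FPKM, 0.0935) and B2m (970.4 and 836 FPKM, 0.0843). B2m passed as a fall on the TPM scale (log2 fold change -0.26, adjusted p = 0.0392), over plain read sums (-0.25, 0.0466), with voom (-0.25, 0.00287), without Fbxw11 library 3 (-0.27, 0.0393) and without both libraries numbered 3 (-0.31, 0.0125), which is 5 of its 16 alternatives. Of 5 tested IRF5 targets 2 rose, Il6 by 1.43 and Ccl5 by 0.81, and 0 fell (median 0.15). Tnf (467 and 519 FPKM, adjusted p = 0.0751) and Il1b did not pass. Nor did Il23a, which was lower in each Fbxw11 library (6.02 and 5.29 FPKM, log2 fold change -0.16, adjusted p = 0.0827). Calls in this list, of either direction, numbered 3 on the TPM scale and over plain read sums. Tnf did not pass on either of these scales (adjusted p = 0.151 and 0.141). The 2 rises and 0 falls are counts on the deposited scale.

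IRF8 targets moved in both directions, with 3 of 11 tested members higher and 2 lower (median 0.06). Cybb, the catalytic subunit of the phagocyte NADPH oxidase, rose from 106 ± 0.810 to 159.7 ± 4.24 FPKM, by 0.59 on the log2 scale (adjusted p = 0.000486), and Fcgr1 by 0.19. Acp5, an osteoclast phosphatase gene, fell from 7.65 ± 0.553 to 4.74 ± 0.574 FPKM (-0.60, adjusted p = 0.00961), and Cst3 fell by 0.19 on the log2 scale. The call of Cst3 was lost under 7 of 16 alternatives. The list's 5 calls became 2 without control library 1, control library 2 or Fbxw11 library 2, and 3 without control library 3 or Fbxw11 library 1. Of 8 IRF4 targets only Ccl17 and Ccl22 were tested and 0 passed, with Ccl22 at 65.5 ± 0.794 and 70.7 ± 0.980 FPKM (adjusted p = 0.0682). At an unadjusted p under 0.05 Ccl22 alone would pass, and voom on recovered reads called 0. Retnla and Chil3 were at 0 in every library.

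**Figure D4:**
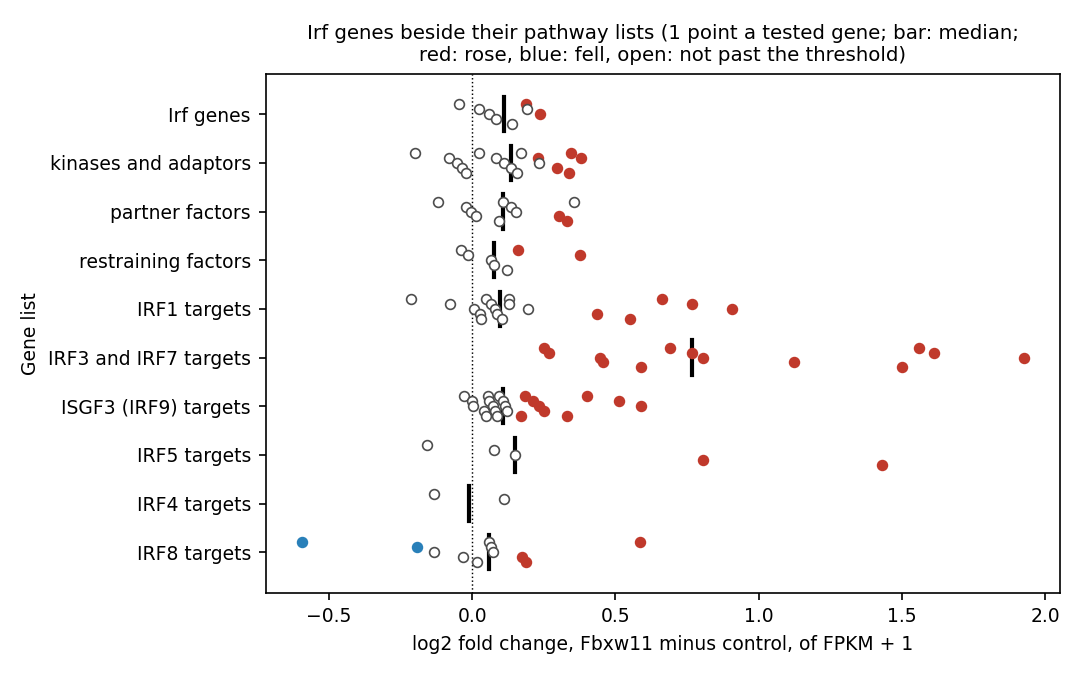
log2 fold change of FPKM + 1, Fbxw11 minus control (horizontal), of each tested gene of the Irf family and of 9 related lists (vertical), with filled points for genes that rose (red) or fell (blue), open points for the rest and a bar at the median. The median of the IRF3 and IRF7 targets, 0.77, lies to the right of the other lists, whose medians run from -0.01 to 0.15, and of the Irf genes at 0.11.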

How the data were processed

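The deposited table gives FPKM per gene and library, made by the authors, with gene lengths in bases. The submitters' processing notes name the build mm10, yet 0 of the 8 members had the start that GENCODE release 21 of that build gives, so no table coordinates are printed. Aligner, counter, strand setting and library size: not given in the sources used here. Values above 0 were whole multiples of a step per library (100% within 0.02 reads), which gave reads. The library size implied was 1.01 to 1.02 times the read sum in control and 0.987 to 0.993 times in Fbxw11 libraries, which raises FPKM in the latter.

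Genes averaging 1 FPKM or more were tested with limma 3.58.1 in R 4.3.3 on log2(FPKM + 1), with a mean-variance trend, no covariate, two-sided, and Benjamini-Hochberg adjustment over all 10898, at a threshold of 0.05. Rose and fell describe genes past it. Errors are SD over n = 3, or SE for log2 fold changes. Reads are not independent molecules, so counting errors cover counting only. No pair of libraries within a group looked like one library deposited again, since their chi-square over degrees of freedom was 2.34 to 5.43. The procedure was tested on simulated data. All changes planted there were larger than those of Irf3 and Irf8, so calls as small as these were not covered. Within libraries, 5 ratios were compared by exact permutation.

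The members, gene lists and rule for named genes were chosen with earlier results of these data known. The rule takes all 8 members and Fbxw11, from each list up to 4 called genes with the smallest p and the most abundant gene not called, and for each called member the 3 protein-coding genes of most similar pattern. Other list genes were named after their values were seen, and some genes within the rule are not reported here. Promoter windows are RefSeq's, on GRCm38.p6. Alternatives changed the pseudocount, filter, scaling, variance model, test, block and libraries.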

Additional observations from a re-analysis of the deposited data

How the results depend on the processing

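The count of 2 members called fell to 1 on the TPM scale, over plain read sums and without the mean-variance trend (Irf3 each time), and to 0 with no filter. Leaving out a library gave 0 to 1 members, and 0 without both libraries numbered 3. Genes changed numbered 596 with no filter, 1559 with voom on recovered reads and 409 to 801 with a library left out, against 1007. Fewer samples were fitted where libraries were left out, and the cause of the other shifts was not tested. Genes called in the 9 lists numbered 27 to 41 over all alternatives, against 38. The direction of Irf1, Irf3, Irf5, Irf7, Irf8 and Irf9 was above 0 under each alternative they were tested in. Signs turned for genes that did not pass. Irf2 read -0.014 on the TPM scale, -0.0074 over plain read sums and -0.012 with voom, and from -0.026 to 0.074 with a library left out (below 0 without control library 3 or Fbxw11 library 1). Irf4 ran from -0.086 to 0.013 with a library left out, above 0 without Fbxw11 library 1. Jun read -0.031, -0.025 and -0.025 on those 3 scales, -0.022 without both libraries numbered 3, and from -0.021 to 0.041 with a library left out. Bst2 read -0.0029 on the TPM scale and from -0.034 to 0.148 with a library left out. Scaling to TPM moved the median of all genes by -0.04. In fits without a library, the filter stayed that of all 6.

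Replicate numbers are shared by the groups, but same-numbered libraries did not deviate together beyond 0.1 in every pair (correlations 0.04, 0.04 and 0.19), so they were not treated as pairs. With the replicate number as a block, 0 members and 621 genes passed. The adjusted p was 0.0587 for Irf3 and 0.0745 for Irf8. Control library 1 correlated best with Fbxw11 library 2 (0.148), and control libraries 2 and 3 with their own numbers. The highest correlation of any control with any Fbxw11 library was between those numbered 3 (0.19), which also stood apart on the second principal component. Irf1 and Irf4 had the fewest reads of the members, at 141 to 244 a library.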
